A study of Mus musculus with 24 samples.

Results

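*Atf4*, *Atf5*, *Atf3*, *Ddit3*, *Trib3*, *Nupr1*, *Cebpb* and *Cebpg* encode ATF4, CHOP (the product of *Ddit3*) and partner regulators of the integrated stress response (ISR). These 8 genes were taken by symbol from the 55335 genes counted in each library, and for *Ddit3*, which is listed under 2 identifiers, the entry with more counts was used. Their mRNA was followed in bulk RNASeq of cultured primary osteoblasts (OBs) from parietal bones of mouse pups, sampled 8, 14 and 21 days after plating (24 libraries, 4 for each genotype at each day). Wild type (WT) cultures were compared with Het G610C cultures, whose donors carried one *Col1a2* allele in which the codon for glycine 610 of the α2(I) collagen triple helix codes for cysteine. Both genotypes were on the C57BL/6J background, and all cultures were grown in the same osteogenic medium with ascorbic acid 2-phosphate. Each genotype's cells came from several pups and were mixed before plating, so wells of one experiment share a pool of animals. A pair of experiments was run, with different litters, seeding densities and oxygen levels while the cells expanded. The labels do not say which replicate number belongs to which experiment. The methods describe fewer wells for a genotype and day than there are labelled libraries, so how libraries map to wells is not known, and p-values measure the spread between these libraries only.

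In the ISR, kinases that sense misfolded protein, amino acid shortage, heme shortage or viral RNA phosphorylate the translation factor eIF2α, which slows general translation while reading frames upstream in the *Atf4* mRNA let more ATF4 protein be made. ATF4 binds DNA as a dimer with C/EBP proteins and other basic leucine zipper (bZIP) factors and activates genes of amino acid uptake, amino acid synthesis and tRNA charging. ATF5 is controlled in translation much as ATF4 is and is linked to the mitochondrial stress response. CHOP acts later and is known for its part in stress-induced cell death, TRIB3 is a pseudokinase that is induced by ATF4 and CHOP and restrains both, ATF3 is an early stress factor, NUPR1 is a small chromatin-associated stress protein, and C/EBPβ and C/EBPγ are dimer partners. In OBs, ATF4 is known as a factor for late differentiation and for the amino acid supply of collagen synthesis. Counts of mRNA do not measure the translation or the amount of these proteins.

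Libraries held 17140202 to 59734231 counts, and the 6 libraries numbered replicate 1 were the shallowest (17140202 to 25825762 against 28159342 to 59734231). Replicate 1 also stood apart from replicates 2 to 4 in the way its libraries were named, so it was treated as a candidate batch, and values within it are given beside the results it changes. All 10 OB markers examined, among them *Col1a1*, *Sp7* and *Ibsp*, were detected in every library. Transcripts of macrophages were present too: the summed level of 15 macrophage markers was 149 to 282 CPM (counts scaled to the total of a library) in WT at day 8 and 3139 to 3609 CPM at day 21, and in Het it was 235 to 718 CPM and 3923 to 10164 CPM. Chondrocyte markers (7 genes) were present as well, with sums of 12243 to 19687 CPM in WT and 3628 to 18811 CPM in Het at day 8. At day 14 the sums were 3594 to 10837 CPM in WT (median 5356) and 856 to 13431 CPM in Het (median 1301). At day 21 the medians were 3721 CPM in WT and 1118 CPM in Het. The 10 OB markers summed to 137544 to 152948 CPM in WT and 101488 to 129521 CPM in Het at day 21. At days 8 and 14 the ranges of this sum overlapped between genotypes. In bulk libraries, fewer cells of a type and less RNA per cell cannot be told apart.

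Relative quantity (RQ) stands for the count of a gene over the geometric mean of the counts of 4 housekeeping genes, *Sdha*, *Mrfap1*, *Actb* and *Actg1*, of that library. On the RPKM scale, in which counts are divided by exon length and by the total of the library so that levels of different genes can be compared, *Atf4* was the most abundant of the 8 mRNAs over the 12 WT libraries (103.5 ± 20.7, SD), followed by *Nupr1* (84.0 ± 57.5) and *Atf5* (58.4 ± 17.96). The ranges of these 3 genes overlapped. *Ddit3* came next at 9.46 ± 1.55 RPKM, then *Cebpb* at 7.44 ± 1.82, *Cebpg* at 5.90 ± 0.63, *Trib3* at 4.26 ± 2.18 and *Atf3* at 2.98 ± 2.26, and every neighbouring pair among these 5 overlapped in range as well. The lowest *Atf5* value in WT (27.3 RPKM) was above the highest *Ddit3* value (11.1 RPKM). In Het at day 14 the order of means was another one: *Trib3* at 41.8 ± 13.5 RPKM (SD, n = 4) stood above *Ddit3* (25.5 ± 5.6), *Cebpb* (11.5 ± 2.8) and *Cebpg* (8.26 ± 2.11), while in WT at that day *Trib3* (5.32 ± 0.38) was below all 3, with *Ddit3* at 10.3 ± 0.6 RPKM. The range of *Trib3* overlapped that of *Ddit3* in Het (23.6 to 56.3 against 17.5 to 30.5 RPKM). In WT it overlapped those of *Cebpb* and *Cebpg* (4.96 to 5.86 against 4.90 to 6.23 and 5.49 to 5.90 RPKM). At the top, *Nupr1* (170.8 ± 58.2 RPKM) stood above *Atf4* (150.6 ± 19.5) in Het at day 14 and below it in WT (93.9 ± 3.9 and 113.0 ± 4.4), and the Het ranges of both genes overlapped.

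Promoter sequence was read for the 8 genes from RefSeq (build GRCm38.p6, 250 bases before to 50 after each start), because dimers of ATF4 or CHOP with C/EBP factors are known to bind a composite element, TGATGNAA. All 8 genes matched, with 9 promoters between them. The element, searched on both strands, was found in the promoters of *Atf3*, *Nupr1* and *Trib3*. It is shown in capitals, in each case as its reverse complement on the gene's strand, with the surrounding bases:

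Atf3 chr1:191183396-191183483: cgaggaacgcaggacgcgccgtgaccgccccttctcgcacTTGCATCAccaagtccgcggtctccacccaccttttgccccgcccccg

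Nupr1 chr7:126625533-126625620: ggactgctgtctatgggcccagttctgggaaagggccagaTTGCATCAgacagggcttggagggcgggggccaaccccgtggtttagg

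Trib3 chr2:152344031-152344086: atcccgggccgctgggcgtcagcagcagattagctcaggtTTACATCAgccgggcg

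All of these lie on the minus strand and are written 5′ to 3′ along it. The genes are annotated on GRCm38 (mm10, GENCODE M21), *Atf4* at chr15:80255184-80257541, *Atf5* at chr7:44812256-44816658, *Ddit3* at chr10:127290774-127296288, *Trib3* at chr2:152337422-152344032, *Cebpb*, a gene of 1 exon, at chr2:167688915-167690418 and *Cebpg* at chr7:35046422-35056573, and counts are over their exons. In *Atf3* and in *Nupr1* the element begins 110 bases before the RefSeq start (position -110), and in *Trib3* it begins 15 bases after the RefSeq start, which is upstream of the *Trib3* start in GENCODE (152344032). *Atf3* and *Nupr1* also have longer transcripts in GENCODE, so their elements lie inside the annotated gene spans (chr1:191170296-191218039 and chr7:126623249-126630861). Among all 32851 RefSeq promoters of this length, 3.97% held the element, and among 43 promoters of the ISR targets described further on, 14 did (32.6%). A cAMP response element, TGACGTCA, and a C/EBP palindrome, TTGCGCAA, were found in none of the 9 promoters, against 1.79% and 0.183% of all promoters. Only these exact letters were searched, so related sites that differ from them by a base were not counted. A match of letters is a description of the sequence and not evidence of binding.

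The quasi-likelihood test of edgeR was applied to the counts in 1 fit over the 6 groups of genotype and day, with the housekeeping genes setting the scale of each library, and p-values were adjusted (Benjamini-Hochberg) over all 20434 genes tested, all 8 members among them. At day 8 none of the 8 genes differed between Het and WT at an adjusted p under 0.05, against 0.631% of all genes (129 of 20434, either direction). By the same edgeR test 2 of the 8 had an unadjusted p under 0.05, *Atf3* and *Trib3*, and DESeq2's Wald test called 0 of the 8 as well. The share of all genes at that unadjusted threshold is not given here. Of the 20434 genes, 619 had a larger log2 fold change than *Atf3* and 906 a larger one than *Trib3*. RQ of *Trib3* in WT replicates 1 to 4 was 0.00755, 0.00413, 0.00484 and 0.00493, and in the Het replicates it was 0.00704, 0.00725, 0.0100 and 0.00717. Replicate 1 of WT thus stood as high as most Het libraries, and the log2 fold change was 0.60 ± 0.22 (SE, edgeR adjusted p = 0.302). For *Ddit3* the Het to WT ratio of mean RQ was 1.00 and for *Atf4* it was 0.976, with overlapping groups. No member separated the Het from the WT libraries at this day, when 1.23% of all genes had all Het libraries above all WT libraries.

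The day 8 values depended on replicate 1. Without it, edgeR called 3 members higher in Het, against 4.14% of all genes in that fit: *Atf3* (log2 fold change 1.16, adjusted p = 0.0043), *Trib3* (0.81, adjusted p = 0.00374) and *Atf5* (0.38, adjusted p = 0.0429). Within replicates 2 to 4, *Atf3* and *Trib3* were higher in every Het library than in any WT library, as 8.56% of all genes were, at ratios of mean RQ of 2.24 and 1.76, and within replicate 1 both were lower in Het, at ratios of 0.830 and 0.934. The 15 macrophage markers had the same split at day 8: their sum was 509 to 718 CPM in Het and 149 to 183 CPM in WT in replicates 2 to 4, and 235 CPM in Het and 282 CPM in WT in replicate 1. Over all 4 replicates at day 8, 7 of the 15 were called higher in Het, with a median log2 fold change of 1.55 (all genes: -0.07).

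**Figure D1:**
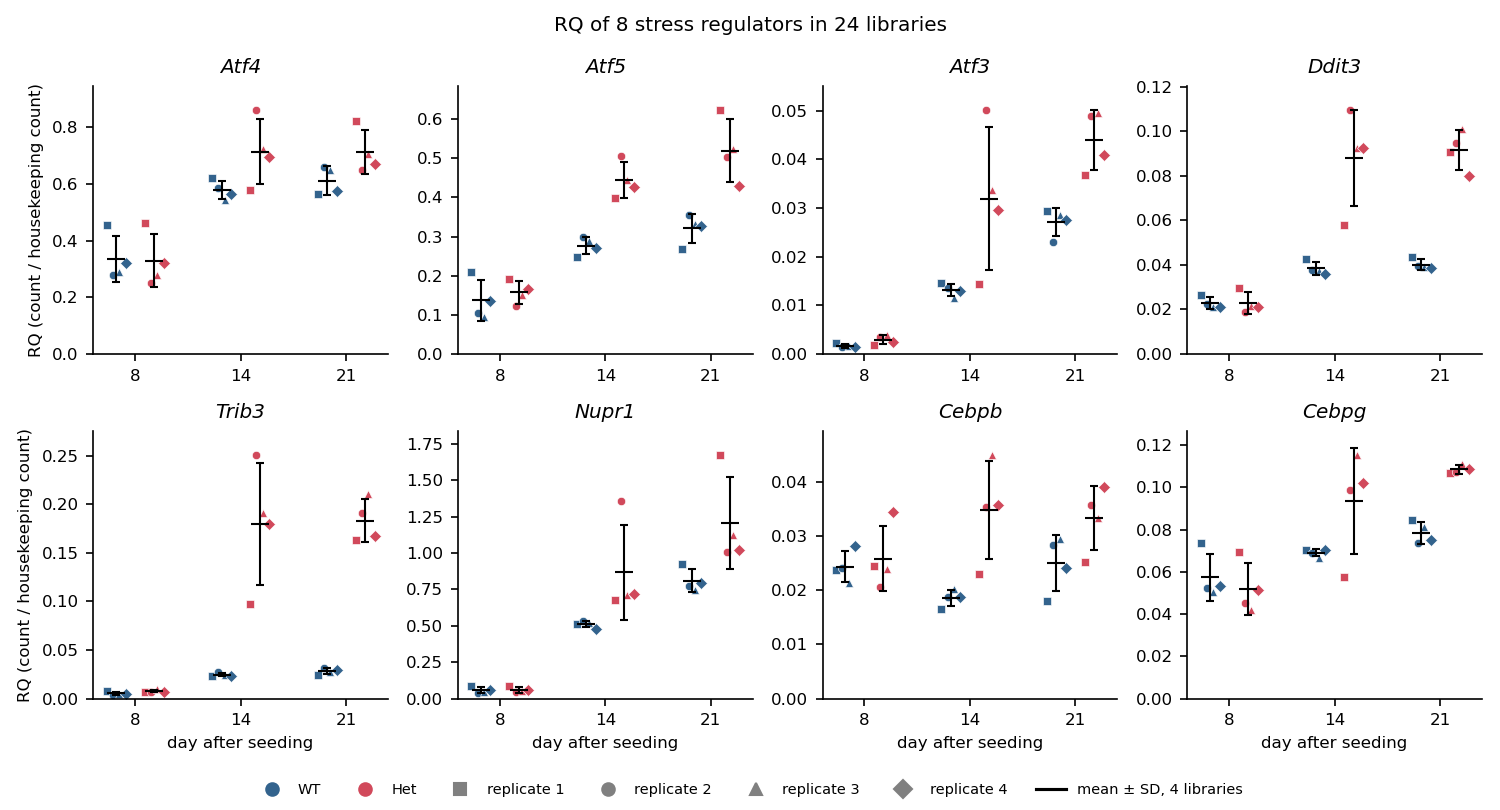
RQ of each of the 8 genes (vertical axis, starting at 0) by day after seeding (horizontal axis), with 1 symbol per library, blue for WT and red for Het, the symbol's shape giving the replicate number, and black lines for the mean ± SD of 4 libraries. *Ddit3* and *Trib3* separate the genotypes at days 14 and 21 and not at day 8, and the Het replicate 1 library of day 14 (square) is the lowest Het library of that day for all 8 genes.

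At days 14 and 21 the separation of the genotypes was widest for *Trib3*, the pseudokinase. At day 14 the WT libraries (replicates 1 to 4) had RQ values of 0.0237, 0.0269, 0.0242 and 0.0234, and the Het libraries 0.0976, 0.251, 0.191 and 0.179. At day 21 the WT values were 0.0244, 0.0318, 0.0279 and 0.0294 and the Het values 0.164, 0.191, 0.211 and 0.167. The lowest Het library stood above the highest WT library at both days, and replicate 1 of day 14 was the lowest of the Het libraries. Over both days the ratio of mean RQ was 6.86 (Het 0.181 ± 0.044, WT 0.0264 ± 0.0031, SD, n = 8, two-sided exact permutation p = 0.000155, the smallest that 8 against 8 libraries allow). The log2 fold change was 2.78 ± 0.15 (SE, edgeR adjusted p = 2.07e-10), and 19 of the 20434 genes tested had a larger one.

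For *Ddit3*, which encodes CHOP, RQ in the WT libraries of day 14 was 0.0428, 0.0377, 0.0371 and 0.0361, and the Het libraries had 0.0581, 0.109, 0.0924 and 0.0926. At day 21 the WT values were 0.0437, 0.0395, 0.0389 and 0.0387, and the Het values 0.0907, 0.0948, 0.101 and 0.0799. The genotypes did not overlap at either day, and WT libraries varied little. Over both days the ratio was 2.29 (exact permutation p = 0.000155) and the log2 fold change 1.198 ± 0.10 (SE, edgeR adjusted p = 4.08e-07). The other entry of *Ddit3* covers 105 bases that lie within the exons of the main one, with 5219 counts against 25451, and gave a ratio of 2.42, so reads of that stretch may be split between the entries or missing from the main one. The main entry shares 68 exon bases with *Mars*, a tRNA synthetase gene on the other strand, and whether reads were counted by strand is not given in the sources used here.

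*Atf5* was the third gene without overlap over days 14 and 21. RQ ran from 0.248 to 0.299 in the WT libraries of day 14 and from 0.397 to 0.506 in the Het libraries, and at day 21 from 0.269 to 0.355 (WT) and from 0.428 to 0.622 (Het). The ratio over both days was 1.61 (exact permutation p = 0.000155) and the log2 fold change 0.69 ± 0.13 (SE, edgeR adjusted p = 0.00234). In all genes tested, 0.387% showed all Het libraries of days 14 and 21 above all WT libraries, as these 3 of the 8 did. Exons of *Atf5* share 82 bases with *Il4i1* and *Nup62*, both on the other strand.

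*Atf4* itself differed least. At day 14 the WT libraries had RQ values of 0.621, 0.586, 0.545 and 0.564, and the Het libraries 0.578, 0.860, 0.723 and 0.697. At day 21 the WT values were 0.563, 0.660, 0.651 and 0.574 and the Het values 0.823, 0.650, 0.705 and 0.671. Het was the higher in 6 of 8 pairs of libraries with the same day and replicate number, and 6 of the 8 Het libraries were above all WT libraries. Replicate numbers are not known to pair WT with Het libraries. The ratio of mean RQ over both days was 1.198 (exact permutation p = 0.00342), and the edgeR log2 fold change of 0.26 ± 0.12 (SE) did not pass (adjusted p = 0.136). With libraries scaled by TMM, by DESeq2's size factors or by the total count, *Atf4* was called higher, and also without replicate 1 (log2 fold change 0.27, adjusted p = 0.00383).

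For *Atf3*, an early stress factor, RQ in the WT libraries of day 14 was 0.0115 to 0.0146, and the 4 Het libraries had 0.0144, 0.05005, 0.0336 and 0.0295. At day 21 the range was 0.0230 to 0.0294 for WT and 0.0368 to 0.0495 for Het. Replicate 1 of Het at day 14 was within the WT range and the other 7 Het libraries were above all 8 WT libraries. Over both days the ratio was 1.88 (exact permutation p = 0.00544) and the log2 fold change 0.99 ± 0.17 (SE, edgeR adjusted p = 0.00134). For *Nupr1*, the chromatin-associated stress gene, RQ at day 14 was 0.481 to 0.536 (WT) and 0.680 to 1.36 (Het), and at day 21 it was 0.747 to 0.926 and 1.01 to 1.67, so that the genotypes were apart within each day and overlapped across days. Its ratio over both days was 1.57 (exact permutation p = 0.0127) and its log2 fold change 0.67 ± 0.17 (SE, edgeR adjusted p = 0.0141).

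The RQ range of *Cebpb*, which encodes C/EBPβ, was 0.0165 to 0.0202 (WT) and 0.0230 to 0.0449 (Het) at day 14, and 0.0181 to 0.0294 and 0.0251 to 0.0391 at day 21, with Het the higher in 8 of 8 same-numbered pairs. The ranges overlapped at day 21, and replicate numbers are not known to pair the libraries. The share of all genes higher in every such pair is not given here. Over both days the ratio was 1.56 (exact permutation p = 0.00218) and the log2 fold change 0.66 ± 0.13 (SE, edgeR adjusted p = 0.00325). The exon of *Cebpb* shares 312 bases, 20.7% of its length, with *Tmem189* on the other strand, a gene with 69763 counts against the 14467 of *Cebpb*, so reads of that stretch may belong to either gene. *Cebpg*, which encodes C/EBPγ, ranged in RQ from 0.0667 to 0.0704 in WT at day 14, where the 4 Het libraries had 0.0575, 0.0988, 0.115 and 0.102. At day 21 the ranges were 0.0737 to 0.0848 (WT) and 0.107 to 0.111 (Het). Here too replicate 1 of Het at day 14 was the exception, below every WT library of the day, and the ratio over both days was 1.37 (exact permutation p = 0.00233, log2 fold change 0.45 ± 0.12, SE, edgeR adjusted p = 0.0125).

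Over days 14 and 21, 7 of the 8 genes, all but *Atf4*, were called higher in Het by edgeR and none lower, against 7.15% of all genes called higher, and their median log2 fold change was 0.68 (all genes: -0.05). By the rule of a change in mean RQ above 20% with an exact permutation p under 0.05, the same 7 passed (*Atf4* at a ratio of 1.198 lay just under 1.2), against 5.83% of all genes. At day 14 alone edgeR called 5 of the 8 higher (*Atf3*, *Atf5*, *Ddit3*, *Trib3* and *Cebpb*), against 1.93% of all genes, and 5 did not overlap between genotypes (*Nupr1* in place of *Atf3*), against 2.17%. At day 21 alone it called *Ddit3* and *Trib3*, 2 of the 8, against 0.651% of all genes, while 6 did not overlap, against 7.16%. With the replicate number as a block in the fit, *Nupr1* was also called at day 14 (adjusted p = 0.0341) and *Atf5* at day 21 (adjusted p = 0.0399).

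Over days 14 and 21, *Trib3* and *Ddit3* kept their edgeR call without each replicate number, and the other called members each lost it without 1 replicate number or more. *Atf3*, *Cebpb*, *Cebpg* and *Nupr1* lost their edgeR call when replicate 2, replicate 3 or replicate 4 was left out of all groups (highest adjusted p 0.0826, 0.111, 0.230 and 0.188), and *Atf5* lost it without replicate 4 (adjusted p = 0.0881). Leaving out any single library kept all 7 calls. At day 21 alone, *Ddit3* lost its edgeR call without replicate 3 or 4 (highest adjusted p 0.0734). At day 14 alone it lost the call without replicate 4 (adjusted p = 0.0561), and *Trib3* kept it without each replicate number. Also at day 14, *Cebpb* lost its call without WT day 14 replicate 2, WT day 14 replicate 4 or Het day 14 replicate 4 (highest adjusted p 0.0584), and the day 14 call of *Atf5* (adjusted p = 0.0461) held in 9 of 24 fits that each left out 1 library. Without replicate 1, edgeR called all 8 members higher over days 14 and 21 (18.4% of all genes in that fit), 8 at day 14 (14.4%) and 5 at day 21 (10.7%). Within replicates 2 to 4 every one of the 8 genes was higher in all Het than in all WT libraries of day 14, as 18.5% of all genes were, at ratios of 1.34 (*Atf4*) to 8.34 (*Trib3*), whereas within replicate 1 of that day the ratios ran from 0.819 (*Cebpg*) to 4.12 (*Trib3*).

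**Figure D2:**
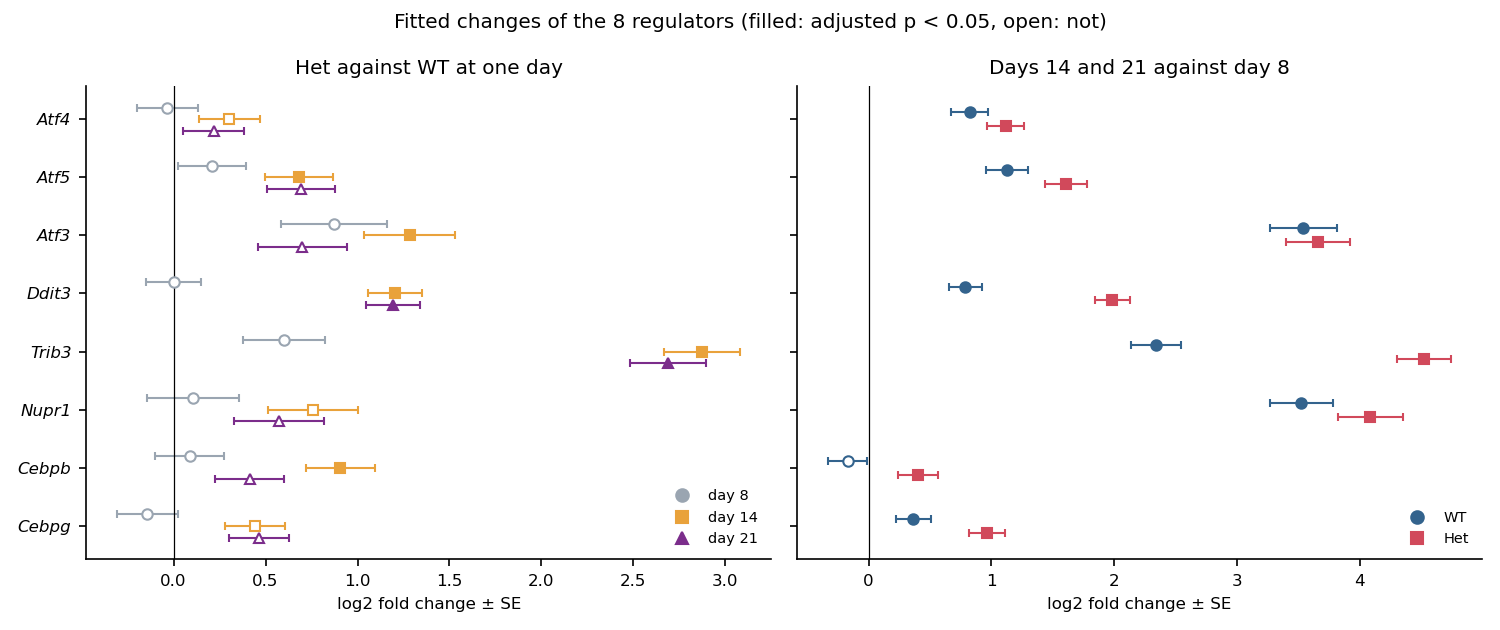
Fitted log2 fold changes with their SE (horizontal axis) for the 8 genes (rows), on the left Het against WT at day 8 (grey circles), day 14 (orange squares) and day 21 (purple triangles), on the right days 14 and 21 against day 8 in WT (blue circles) and Het (red squares); filled symbols have an edgeR adjusted p under 0.05. *Trib3* and *Ddit3* are at 2.87 and 1.204 at day 14 and at 2.69 and 1.19 at day 21, while at day 8 all 8 symbols are open.

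The Het effect of 2 members differed between the later days and day 8. For *Trib3* the difference of the log2 fold changes, days 14 and 21 minus day 8, was 2.18 ± 0.27 (SE, edgeR adjusted p = 0.000495), and for *Ddit3* it was 1.198 ± 0.18 (SE, adjusted p = 0.00478). In all genes tested 0.166% had a called difference in this direction (34 of 20434). Both calls held when any single library was left out, the *Ddit3* call was lost without replicate 2, 3 or 4 (adjusted p up to 0.438) and the *Trib3* call without replicate 3 or 4 (adjusted p up to 0.186). For the other 6 members the difference did not pass, except for *Cebpg* when replicate 1 was left out (log2 difference 0.74, called in this direction for 3.93% of all genes in that fit), and for *Atf3* it was 0.12 ± 0.34 (SE). Between days 14 and 21 no member had a called difference in the Het effect by edgeR, as no gene had (0.0% of 20434), though 452 genes had an unadjusted p under 0.05, none of them a member, and DESeq2's Wald test called no member either.

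Cultures changed between day 8 and the later days in both genotypes, and these comparisons share libraries with the ones above. In WT, 7 of the 8 members were called higher at days 14 and 21 than at day 8, against 31.3% of all genes. *Atf3* rose by a log2 fold change of 3.54 ± 0.27 (SE), *Nupr1* by 3.52 ± 0.26 and *Trib3* by 2.34 ± 0.20, and *Atf5*, *Atf4*, *Ddit3* and *Cebpg* rose by 1.13, 0.82, 0.79 and 0.36 (edgeR adjusted p at most 0.0443). *Cebpb* was the exception at -0.17 ± 0.16 (SE, edgeR adjusted p = 0.420). In Het all 8 were called higher, against 33.7% of all genes: *Trib3* by 4.52 ± 0.22 (SE), *Nupr1* by 4.08 ± 0.27, *Atf3* by 3.66 ± 0.26, *Ddit3* by 1.99 ± 0.14, and *Atf5*, *Atf4*, *Cebpg* and *Cebpb* by 1.61, 1.12, 0.96 and 0.40. The smallest of these depended on the setting. *Cebpg* in WT was not called by edgeR under TMM, DESeq2's size factors or the total count (log2 fold change 0.06 under the last, adjusted p = 0.713), nor without replicate 2, 3 or 4 (adjusted p up to 0.219). *Cebpb* in Het (edgeR adjusted p = 0.0491) was lost under the same scalings (0.11 under the total count, adjusted p = 0.654) and without replicate 2, 3 or 4 (adjusted p up to 0.331). Housekeeping genes took 544 to 629 CPM at day 8 and 428 to 517 CPM later, so comparisons with day 8 move with the choice of scale more than comparisons within a day.

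From day 14 to day 21, 1 member was called in WT and none in Het. In WT *Atf3* was called higher at day 21 (log2 fold change 1.05 ± 0.25, SE, edgeR adjusted p = 0.0120), the only one of the 8, against 4.95% of all genes called higher, and this call was lost without replicate 2, 3 or 4 (adjusted p up to 0.181). In WT *Nupr1* had a log2 fold change of 0.66 ± 0.25 (SE, edgeR adjusted p = 0.107, mean RQ 0.513 at day 14 and 0.810 at day 21) and *Cebpb* one of 0.43 ± 0.19 (adjusted p = 0.185), both with an unadjusted p under 0.05. In Het none of the 8 was called, against 4.74% of all genes (either direction), and by DESeq2's Wald test none was either. No member had an unadjusted edgeR p under 0.05 for this comparison in Het.

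Ratios of one member to another within a library do not depend on the housekeeping genes. For 7 pairs, picked after the values above were known, the counts per base of one gene were divided by those of the other in the same library, giving 28 comparisons by day whose p-values are unadjusted. *Ddit3* to *Atf4* was 0.0952 ± 0.0129 in WT and 0.0972 ± 0.0094 in Het at day 8 (SD, n = 4, exact permutation p = 0.829), and over days 14 and 21 it was 0.0911 ± 0.0079 in WT and 0.173 ± 0.021 in Het (SD, n = 8, exact permutation p = 0.000155). In WT this ratio thus stayed in one range, 0.0803 to 0.110, over all 3 days, and every Het library of days 14 and 21 was above it. *Trib3* to *Ddit3* in WT was 0.188 ± 0.033 at day 8 and 0.545 ± 0.073 over days 14 and 21, and in Het it was 0.287 ± 0.076 and 1.61 ± 0.15 (SD, Het against WT over days 14 and 21: exact permutation p = 0.000155). *Atf5* to *Atf4* was 0.594 ± 0.060 in WT and 0.8003 ± 0.087 in Het over days 14 and 21 (SD, n = 8, exact permutation p = 0.000155), and in these 3 ratios replicate 1 was on the side of the other replicates at both days.

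Other ratios separated the genotypes at day 14 and overlapped over both days. At day 14 alone, *Cebpg* to *Cebpb* was 0.881 to 1.14 in WT and 0.668 to 0.766 in Het, *Nupr1* to *Atf4* was 0.778 to 0.895 and 0.922 to 1.48, and *Atf3* to *Atf4* was 0.0231 to 0.0258 and 0.0273 to 0.0637 (each exact permutation p = 0.0286, the smallest that 4 against 4 libraries allow). At day 21 alone these 3 ratios had exact permutation p-values of 0.914, 0.114 and 0.0857. *Cebpg* to *Cebpb* over days 14 and 21 was 0.941 ± 0.193 in WT and 0.806 ± 0.150 in Het (SD, n = 8, exact permutation p = 0.143), and *Nupr1* to *Atf4* was 1.04 ± 0.27 and 1.35 ± 0.33 (exact permutation p = 0.062, and 0.00781 with genotypes swapped only within a day and replicate number as a replicate block, the smallest that allows). *Atf3* to *Atf4* was 0.0369 ± 0.0140 in WT and 0.0579 ± 0.0180 in Het (SD, n = 8, exact permutation p = 0.0235), which rose to 0.186 without replicate 2, 0.0866 without replicate 3 and 0.0606 without replicate 4.

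**Figure D3:**
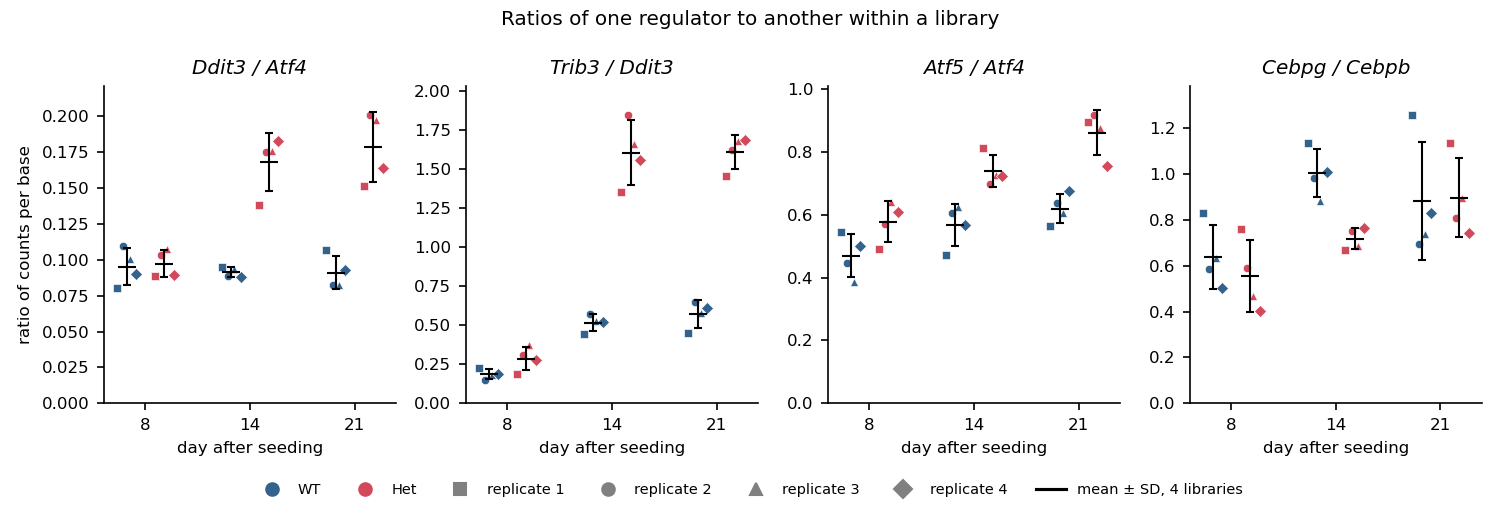
Ratios of counts per base of one gene to another in the same library (vertical axes, starting at 0) by day after seeding, with 1 symbol per library, blue for WT and red for Het, and black lines for the mean ± SD of 4 libraries. *Ddit3* to *Atf4* in WT stays near 0.09 at all 3 days and is 0.138 to 0.201 in the Het libraries of days 14 and 21, and *Trib3* to *Ddit3* is 0.446 to 0.649 in WT and 1.35 to 1.85 in Het at these days.

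Genes with the profile most like each member over the 24 libraries were found among the 14890 genes that averaged 50 or more counts, by the root mean square (RMS) difference of log2 RQ after each gene was centred. The measure describes likeness only, and all genes share the same libraries and scale. Nearest to *Atf3* were *Cd93*, *Lilr4b* and *Cd68*, genes known from myeloid cells, at 0.324 to 0.354 (log2 units, against an SD of 1.81 of *Atf3* itself). *Atf4* was nearest to *Arntl*, *Dusp8* and *Herpud1* (0.126 to 0.153, own SD 0.52), and *Atf5* to its overlapping neighbour *Il4i1* and to *Pck2* and *Asns*, genes of mitochondrial gluconeogenesis and asparagine synthesis (0.192 to 0.239, own SD 0.76). *Ddit3* was nearest to its other entry, *Ccdc24* and the glycine transporter gene *Slc6a9* (0.135 to 0.287, own SD 0.83), and *Trib3* to *Soat2*, *Gpr141* and the arginine transporter gene *Slc7a3*, of which *Soat2* (0.315) was far nearer than the others (0.642 and 0.670, own SD 1.99). *Nupr1* was nearest to *Gsg1*, *Frmd4b* and *Rasgrp2* (0.406 to 0.458, own SD 1.87), *Cebpg* to *Ghitm*, *Znrf2* and *Edem1* (0.132 to 0.164, own SD 0.43), and *Cebpb* to *AC099860.1*, *Setd6* and *Pde3b* (0.228 to 0.249, own SD 0.38).

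Because myeloid genes lay nearest to *Atf3*, the macrophage markers are set beside the members. Over days 14 and 21, 13 of the 15 markers were called higher in Het (7.15% of all genes were) and none lower, led by *Cx3cr1*, a chemokine receptor gene (1.30 ± 0.29, SE), and *C1qa*, a complement gene (1.18 ± 0.26), with a median log2 fold change of 1.04 (all genes: -0.05). Their summed level at day 14 was 757 to 2330 CPM in WT and 1864 to 4026 CPM in Het, and in replicate 1 it was the WT library that had more (2330 against 1864 CPM), the same pair in which *Atf3* stood at an RQ of 0.0144 (Het) and 0.0146 (WT). Scaled to the library total, as the marker sums are, *Atf3* in that pair was higher in Het (3.44 against 3.03 RPKM). By RQ, *Trib3* in that pair was 4.12 times as high in Het, *Atf5* 1.603 times and *Ddit3* 1.36 times. *Cebpb* and *Nupr1* in that pair were 1.39 and 1.32 times as high in Het. *Atf4* (RQ 0.578 in Het and 0.621 in WT) and *Cebpg* (0.0575 and 0.0702) were lower in Het. By RPKM *Atf4* was higher in Het (126.2 against 117.3). From day 14 to day 21 in WT 13 of the 15 markers were called higher, with a median log2 fold change of 1.27, and *Atf3* was the only member called. In Het the median of the marker sum was 3860 CPM at day 14 and 6227 CPM at day 21. *Atf3* was not called there (log2 fold change 0.46, edgeR adjusted p = 0.309). No marker of the list was at 0 in any library. The part of macrophages was not tested for any member, *Trib3*, *Ddit3*, *Atf5* and *Atf4* included.

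**Figure D4:**
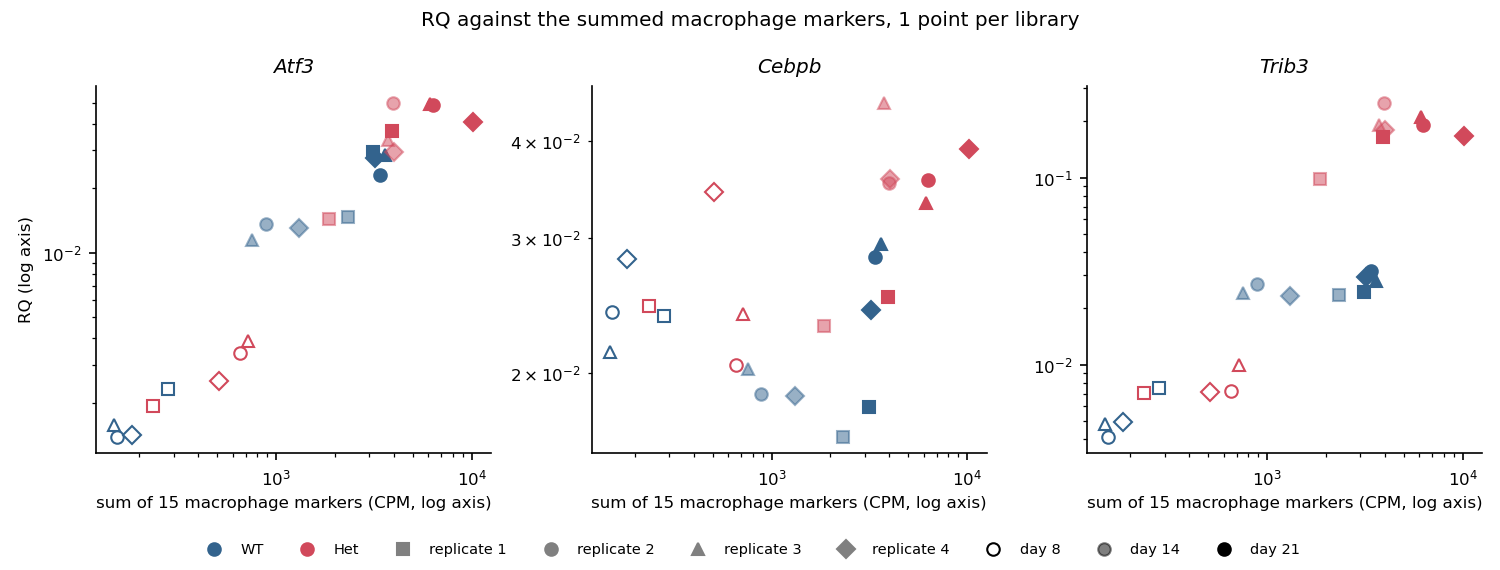
RQ of *Atf3*, *Cebpb* and *Trib3* (vertical log axes) against the summed CPM of 15 macrophage markers (horizontal log axes), 1 symbol per library, blue for WT and red for Het, with open symbols for day 8, pale symbols for day 14 and full symbols for day 21. *Atf3* runs with the marker sum in both genotypes. At sums between 1864 and 3923 CPM, where the genotypes meet, *Trib3* is 0.0237 to 0.0318 in WT and 0.0976 to 0.191 in Het. Days are mixed within these sums: WT at day 21 had 3139 to 3609 CPM and Het at day 14 had 1864 to 4026 CPM. The part of macrophages in these values was not tested.

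The wider pathway was followed with lists of genes chosen with earlier results of these data known, so their counts are a description. Of 47 known ISR targets other than the members, 30 were called higher in Het over days 14 and 21 and 0 lower, against 7.15% of all genes called higher, a share that holds for the other lists of this comparison too, with a median log2 fold change of 0.42 (all genes: -0.05). The 2 with the largest rise were *Slc7a3* (1.71 ± 0.24, SE) and *Cth*, an enzyme of cysteine synthesis (1.601 ± 0.25). The count called higher was 38 under TMM (with 1 lower) and 39 without replicate 1 (with 2 lower), and 16, 13 and 3 without replicates 2, 3 and 4. Without replicate 1, 18.4% of all genes were called higher. The share of all genes in the other settings is not given here, so those counts cannot be read as changes of this list alone. At day 8 none of the 47 was called.

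Of 16 genes of the eIF2α pathway (kinases, eIF2 and eIF2B subunits, the phosphatase subunit gene *Ppp1r15b*, and *Impact*, *Nck1*, *Oma1* and *Dele1*), 2 were called higher (*Eif2s2*, 0.32 ± 0.11, and *Eif2b3*, 0.31 ± 0.09, SE) and 1 lower (*Eif2ak3*, which encodes the kinase PERK, -0.22 ± 0.06), with a median of 0.07, and with TMM scaling 8 were called higher and 2 lower. Among 38 other bZIP factors 9 were called higher, led by *Fos* (0.55 ± 0.11, SE) and *Cebpa* (0.52 ± 0.13), and 2 lower, *Atf7* (-0.22 ± 0.06) and *Tef* (-0.20 ± 0.04), with a median of -0.01 that was above 0 under the other 3 scalings. None of the 16 and none of the 38 was called without replicate 2, 3 or 4. The share of all genes called in these fits and under TMM is not given here. Of 12 immediate early genes, transcribed within minutes of a stimulus, 4 were called higher, *Fos* again among them, led by *Egr2* (0.70 ± 0.15, SE) and *Ier2* (0.60 ± 0.09), and none lower. Neither of the 2 other Tribbles genes, *Trib1* and *Trib2*, was called. Of the 10 OB markers 2 were called lower, *Bglap* (-1.54 ± 0.36, SE), a gene of mature OBs, and *Runx2* (-0.39 ± 0.13), and none higher. At day 8 as well, 2 of the 10 were called lower in Het, against 0.631% of all genes called in either direction. The median log2 fold change of the 10 at that day was -0.88 (all genes: -0.07). In the remaining lists over days 14 and 21, 1 of 7 osteoclast markers tested (*Mmp9*, -1.27 ± 0.32, SE) and 1 of 7 chondrocyte markers (*Sox9*, -0.70 ± 0.22) were called lower, 1 of 4 endothelial markers tested (*Kdr*, a gene of low counts named after its value was seen, 1.00 ± 0.25) and 1 of 5 muscle markers tested (*Myh11*, 0.88 ± 0.18) higher, and none of 4 adipocyte markers tested in either direction.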

How the data were processed

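For each of 24 polyA RNA libraries the authors counted reads over the exons of every gene, and the values deposited are these counts, not normalized, beside gene symbols and exon lengths. Per the submitters' processing notes these came from cutadapt 2.5, STAR 2.73a and featureCounts 1.6.4 of Subread on mm10, and the strand setting and the treatment of multi-mapped reads are not given in the sources used here. Groups were taken from the sample labels, and the 8 members, the gene lists and the rules for naming genes were chosen with earlier results of these data known. From a list, the text names no more than 2 called genes in each direction, those farthest from 0 in Het against WT over days 14 and 21 that average 50 or more counts, and for each member the 3 genes nearest in profile and those with overlapping exons.

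Counts were tested with the quasi-likelihood test of edgeR 4.0.16 (R 4.3.3) in 1 fit of 6 group means, after a filter on low counts that left 20434 genes, with Benjamini-Hochberg adjustment over all of them and a threshold of 0.05. The geometric mean of the housekeeping genes set the scale of each library. RQ was compared by two-sided exact permutation tests over libraries. These allow no p below 0.000155 for 8 against 8 and none below 0.0286 for 4 against 4. Alternatives were TMM, DESeq2 (1.42.0) size factors or total counts as scale, DESeq2's Wald test, other count filters, the replicate number as a block, only the compared groups, summed *Ddit3* entries, and each replicate number or library left out. TMM with the block, the ratios of one member to another and the values within replicate 1 and within replicates 2 to 4 were added after seeing the data. The fitting steps were tested on simulated data. Same-numbered libraries of WT and Het at one day deviated together from their group means (correlation 0.194 to 0.789 in 12 pairs, median 0.371). The median of the 36 other pairs was -0.070. Within replicates 2 to 4 the same-numbered pairs had 0.194 to 0.477 and the other pairs 0.0745 to 0.436, so mainly replicate 1 stood apart. Neither these values nor the labels show that the numbers 2 to 4 pair the libraries. The main fit used no pairing, and the number was a block only in alternatives. No replicate pair agreed within sampling noise (chi-square per degree of freedom at least 5.14 in 36 pairs).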

Additional observations from a re-analysis of the deposited data

Results flagged for a closer look

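Within groups of 4 to 8 libraries, 5 of 64 sets of RQ values had a library far from the others by Dixon's test at the 95% level, which chance alone gives in about 1 of 20. *Ddit3* in WT at day 21 was 0.0437 in replicate 1 and 0.0387 to 0.0395 in the other libraries. *Trib3* in Het at day 8 was 0.0100 in replicate 3 and 0.00704 to 0.00725 in the others. *Cebpg* in WT at day 8 was 0.0737 in replicate 1 and 0.0503 to 0.0531 in the others. *Cebpg* over the 8 Het libraries of days 14 and 21 was 0.0575 in replicate 1 of day 14 and 0.0988 to 0.115 in the others. *Nupr1* in Het at day 14 was 1.36 in replicate 2 and 0.680 to 0.721 in the others.

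The Het effect of 2 genes differed between days 14 and 21 and day 8 by the interaction term in edgeR. The difference of log2 fold changes was 1.198 for *Ddit3* (adjusted p = 0.00478) and 2.18 for *Trib3* (adjusted p = 0.000495). Both calls were lost when replicate 3 or replicate 4 was left out of all groups.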

How the results depend on the processing

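Of 2739 values of single members under alternatives, 2539 kept their direction and their side of the threshold, and no called value turned its direction. Of 414 counts under alternatives, 387 stayed within 1.5 times the reported count. Those that turned direction were near 0. *Atf4* at day 8 (-0.04 as reported) was 0.048 under TMM, 0.045 under DESeq2 size factors, 0.042 under the total count and 0.049 under TMM with the replicate block, and -0.24 to 0.14 with 1 library or replicate left out. *Ddit3* at day 8 was -0.0028 with the replicate block and -0.15 to 0.081 with a library left out, *Cebpb* -0.085 to 0.18 and *Nupr1* -0.13 to 0.36. The *Atf3* difference of Het effects between the later days and day 8 was -0.00696 under TMM with the replicate block and -0.034 to 0.28 with a library left out.

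Members called in Het against WT at day 14 (5 as reported) numbered 3 with only the compared groups and 6 with the replicate block. At day 21 (2 as reported) they numbered 4 under the total count, 5 under TMM with the replicate block, 5 with only the compared groups and 3 with the replicate block. In WT at day 21 against day 14 (1 as reported) they numbered 2 under TMM with the replicate block and 2 with only the compared groups. With a library or replicate left out the counts ran from 0 to 3 at day 8, from 1 to 8 at day 14, from 1 to 5 at day 21, from 2 to 8 over days 14 and 21, from 0 to 3 for the difference of Het effects and from 0 to 3 for WT day 21 against day 14, and the highest of each came without replicate 1. The block changed no call of a member other than *Nupr1* at day 14 and *Atf5* at day 21. Without replicate 1 the share of all genes called higher in Het rose as well. It went from 1.93% to 14.4% at day 14, from 0.651% to 10.7% at day 21 and from 7.15% to 18.4% over both days. Shares for the other settings are not given here, so the shifts in these counts cannot be read as results about the members alone. The cause of these shifts was not tested.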
